A study of Oryza sativa Japonica Group with 15 samples.

Results

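Domain-scale contacts are pairs of places on one chromosome found joined in the sequence of a cell although 20 kb to 2 Mb of DNA separates them. Such a join is read as ligation of places that lay close in the nucleus. Whether each join arose in this way was not tested. They were selected on their measured separation, as all distinct pairs of restriction fragments on one chromosome whose fragment midpoints lay at least 20 kb and under 2 Mb apart, merged to 1 contact per cell and pair of 10 kb bins. In 15 single rice cells this gave 308 domain-scale contacts on 279 distinct bin pairs, built from 520 of the 28358 distinct fragment pairs in the series. The remaining contacts joined positions under 1 kb apart (17117 fragment pairs), 1 to 20 kb apart (5731, short cis), at least 2 Mb apart on one chromosome (546, long cis) or on different chromosomes (4444, trans).

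All cells came from rice of the cultivar Dongjin, with no mutant or treatment named. The groups were 4 egg cells from florets that had not been pollinated, 4 sperm cells from stamens, 3 one-celled zygotes taken 6 to 8 hours after pollination, and, from seedlings at 12 days after germination, 4 shoot cells. Each isolated cell was fixed in formaldehyde and lysed by heat. The DNA was digested by DpnII, a restriction enzyme, ligated, amplified by multiple displacement and sheared for sequencing. The labels name no plant of origin, and each group was therefore treated as 1 sample. Means and SDs over cells describe the spread between cells, and no difference between groups was tested. Contact data hold no expression, so the cell type labels could not be checked against marker genes. Shoot cells 3 and 4 were registered apart from the others, and the series' design text gives a smaller number of shoot cells than the 4 listed.

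Chromatin is folded into neighbourhoods in which positions touch each other more often than positions outside. In animals many of these domains end at sites of the insulator protein CTCF, which plants lack, and in plants domain borders are known to follow active and silent chromatin. Rice chromosomes have gene-rich arms and repeat-rich regions around the centromere. In the one-celled zygote the chromosomes contributed by egg and sperm come to share a nucleus. With few contacts per cell, single-cell Hi-C shows individual ligations rather than a map of domains.

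Domain-scale contacts were few in every cell. The files held 2236 to 17291 read pairs per cell, which came down to 761 to 4576 distinct fragment pairs. The eggs had 27, 36, 12 and 16 domain-scale contacts (mean 22.8, SD 10.9, n = 4 cells). The sperm had 52, 9, 21 and 8 (mean 22.5, SD 20.5, n = 4). The zygotes had 18, 18 and 11 (mean 15.7, SD 4.04, n = 3), and the shoot cells 26, 37, 7 and 10 (mean 20, SD 14.1, n = 4). The ranges of the groups overlapped, and sperm 1 was the highest of all 15 cells. Without sperm 1 the sperm mean was 12.7. The deepest cell did not have the most. Before merging, 28 of the 4576 distinct fragment pairs of egg 3 were domain-scale, or 0.612% (exact 95% interval 0.407% to 0.883%). In egg 2 it was 43 of 1315, or 3.27% (2.38% to 4.38%). These intervals cover counting error only.

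**Figure D1:**
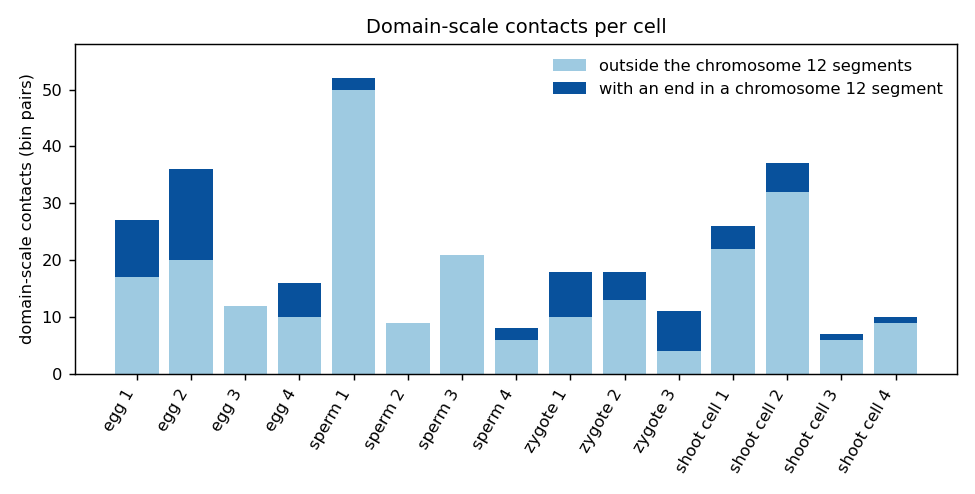
Domain-scale contacts in each of the 15 cells, counted as pairs of 10 kb bins (vertical axis), with dark bars for those that have an end in 1 of the 3 chromosome 12 segments and light bars for the others. Sperm 1 had the most (52) and shoot cell 3 the fewest (7), and the dark part is missing in egg 3, sperm 2 and sperm 3.

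Domain-scale contacts were also set against long cis contacts merged in the same way. There were 108 per 100 long cis bin pairs in sperm (SD 65.0, n = 4 cells), 82.5 among shoot cells (SD 59.8, n = 4), 67.9 in zygotes (SD 39.6, n = 3) and 62.0 in eggs (SD 39.5, n = 4). The ranges of the groups overlapped, and single cells ran from 23.5 in egg 3 to 200 in sperm 1. Without sperm 1 the sperm mean was 77.2, below that of the shoot cells.

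The lower edge of the range fell on a steep part of the distance curve and the upper edge on a flat part. In all cells together, 200 fragment pairs lay 10 to 20 kb apart and 84 lay 20 to 30 kb apart. At the upper edge, 6 fragment pairs lay 1900 to 2000 kb apart and 5 lay 2000 to 2100 kb apart. The nearest fragment pairs on either side were 19.7 kb and 20.1 kb apart at the lower edge, and 1987 kb and 2037 kb at the upper.

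Most domain-scale contacts were short for their class. The median separation over all 308 was 114 kb, with quartiles of 34.3 and 569 kb, and 107 (34.7%) spanned 20 to 50 kb. Relative to the number of possible pairs of positions at each separation, contacts were 22.2 times as frequent at 20 to 50 kb as an even spread over the range would give, 4.74 times at 50 to 100 kb and 2.69 times at 100 to 200 kb. The ratio was 0.776 at 200 to 500 kb, 0.421 at 500 to 1000 kb and 0.327 at 1000 to 2000 kb. Contact frequency therefore fell at each step. The separation was part of the rule that chose the contacts, so these values are a description.

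The median separation varied widely between cells of a group. It was 119, 176, 985 and 156 kb in the eggs and 263, 65.5, 259 and 59.5 kb in the sperm. It was 144, 51.0 and 47.2 kb in the zygotes and 35.1, 69.5, 29.8 and 153 kb in the shoot cells. Egg 3 stood apart from the other eggs. Its 12 contacts included 6 of 1000 to 2000 kb, and the egg mean of 359 kb became 150 kb without it. The share of contacts under 200 kb was 52.3% in eggs (SD 13.9, n = 4 cells), 60.2% in sperm (SD 19.0, n = 4), 70.3% among shoot cells (SD 17.4, n = 4) and 76.6% in zygotes (SD 14.9, n = 3), with overlapping ranges.

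The strongest local feature was on chromosome 12. It carried 86 of the 308 domain-scale contacts (27.9%) on 7.38% of the genome's length, or 31.3 per 10 Mb. The other 11 chromosomes had between 4.19 per 10 Mb (chromosome 2) and 9.65 per 10 Mb (chromosome 11). Chromosome 12 exceeded its share of length in 14 of the 15 cells, and sperm 3 had no domain-scale contact there. Its share was 51.9%, 44.4%, 8.33% and 43.8% in the eggs and 50%, 33.3% and 72.7% in the zygotes. It was 15.4%, 11.1%, 0% and 25% in the sperm and 15.4%, 18.9%, 28.6% and 10% in the shoot cells. Each zygote thus lay above all 4 sperm and all 4 shoot cells, while egg 3 lay below all 4 shoot cells and 3 of the 4 sperm. The excess was not limited to domain scale. Chromosome 12 had on average 41.5% of long cis contacts in eggs, 28.4% in sperm, 31.4% in zygotes and 17.8% among shoot cells. At domain scale the means were 37.1%, 12.9%, 52.0% and 18.2% in that order. Short cis contacts had 13.2%, 6.65%, 14.6% and 5.48%.

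The excess came from short stretches. Of the 37272 bins of 10 kb, 473 (1.27%) held an end of a domain-scale contact in any cell, 17 (0.0456%) in at least 3 cells and 7 (0.0188%) in at least 5 cells. All 17 bins lay on chromosome 12. Joined where less than 100 kb apart, they formed 3 segments, chr12:13340001-13420000 (80 kb), chr12:20470001-20670000 (200 kb) and chr12:21600001-21610000 (10 kb). The positions are those of the genome build of the files, which is not named in the sources used here. No gene annotation of that build was at hand, so the annotation and sequence of the segments were not analysed here. The segments were drawn after their contacts had been seen, so their values describe them and test nothing. Together they made up 0.0778% of the bins, and 67 of the 308 contacts had an end in them. Outside the segments chromosome 12 had 19 of 241 contacts (7.88%), or 6.91 per 10 Mb, within the range of the other chromosomes.

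The first segment lay 1.48 Mb from the textbook position of the centromere of chromosome 12. It held 25 domain-scale contacts, each with both ends inside its 80 kb, in 10 of the 15 cells. These were 7 contacts in 2 eggs, 3 in 2 sperm, 7 in all 3 zygotes and 8 in 3 shoot cells. All groups therefore had contacts there, and the 5 cells without one were egg 1, egg 3, sperm 2, sperm 3 and shoot cell 3. Close contacts were few there relative to domain-scale ones. The segment had 27 domain-scale fragment pairs but 28 short cis and 12 under 1 kb, a ratio of 0.964 domain-scale to short cis. Over the whole genome, with 5731 short cis fragment pairs and 17117 under 1 kb, that ratio was 0.0907. The segment made up 0.0215% of the genome, so its 28 and 12 close fragment pairs were no lack for its length. The segment also took part in 77 long cis and 382 trans fragment pairs.

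The second segment lay on the longer arm, 8.67 Mb from the textbook centromere. It held an end of 42 domain-scale contacts, 35 of them with both ends inside its 200 kb, in 9 cells. Eggs had 25 of these contacts in 3 cells and zygotes 13 in 3 cells, against 1 in 1 sperm and 3 in 2 shoot cells. It had more close contacts than the first, with 343 fragment pairs under 1 kb and 117 of 1 to 20 kb. Its ratio of domain-scale to short cis fragment pairs was 0.427. It took part in 106 long cis and 400 trans fragment pairs.

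The third segment was a single bin with 4 domain-scale contacts, in egg 1, egg 2, zygote 1 and zygote 2. Each of them joined it to the second segment, and none of the deposited fragment pairs under 20 kb touched it. The first and second segments were also joined to each other, by 44 long cis bin pairs in 12 cells, while no contact joined the first to the third.

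**Figure D2:**
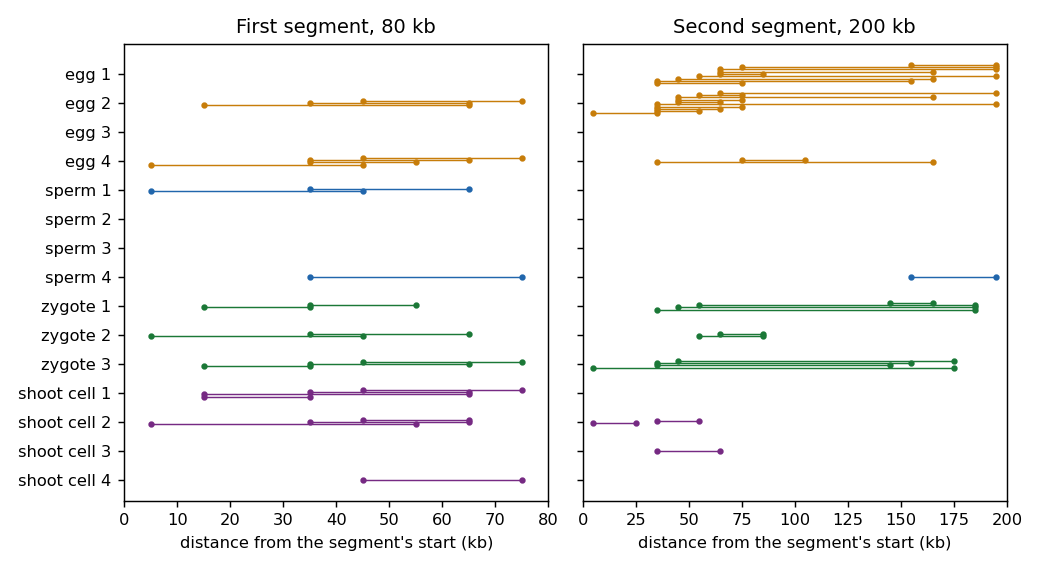
Domain-scale contacts with both ends inside the first (left, 80 kb) and the second (right, 200 kb) chromosome 12 segment, drawn as a line between the centres of the joined 10 kb bins, with the distance from the start of the segment in kb on the horizontal axis and 1 row per cell. The first segment shows contacts in 10 cells of all 4 groups, and the second mostly in eggs 1 and 2 and the zygotes.

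The segments took very different shares of the cells. The share of domain-scale contacts with an end in them was 37.0%, 44.4%, 0% and 37.5% in the eggs and 44.4%, 27.8% and 63.6% in the zygotes. It was 3.85%, 0%, 0% and 25% in the sperm and 15.4%, 13.5%, 14.3% and 10% in the shoot cells. On average the zygotes had 45.3% (SD 17.9, n = 3 cells) and the eggs 29.7% (SD 20.1, n = 4). The shoot cells had 13.3% (SD 2.33, n = 4) and the sperm 7.21% (SD 12.0, n = 4). Every zygote lay above every sperm and every shoot cell, and the eggs ran from 0% to 44.4%. The zeros rest on few contacts: 0 of 12 in egg 3 allows a share of up to 25%, 0 of 9 in sperm 2 up to 33.3%, and 0 of 21 in sperm 3 up to 14.3%.

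The amount of sequence read from the segments also differed between cells. Among read pairs that joined positions under 1 kb apart, the percentage of read ends in the segments was 6.46, 2.59, 0.0365 and 8.05 in the eggs and 3.51, 2.88 and 7.49 in the zygotes. It was 0.329, 2.22, 0.0239 and 5.85 in the sperm and 0.312, 2.40, 0.0988 and 1.08 in the shoot cells. Egg 3 and sperm 3, with no domain-scale contact in the segments, had the lowest percentages of read ends there, and zygote 3, with the highest share of contacts, had the second highest. Sperm 2 departed from this, with 2.22% of read ends and none of its 9 contacts, and so did shoot cell 3, with 0.0988% of read ends and 14.3% of its contacts. In the first segment the 2 measures did not go together. Egg 2, sperm 1 and shoot cells 1, 2 and 4 had 3, 2, 4, 3 and 1 contacts there with no such read end, while sperm 2 had the highest percentage of read ends, 1.62, and no contact. Of the ends of trans contacts, the segments held 15.1% in zygotes, 12.4% in eggs, 4.68% in shoot cells and 4.46% among sperm on average. Of the ends of long cis contacts they held 22.5% for zygotes, 22.4% for eggs, 16.8% for sperm and 11.3% for shoot cells. The part of the amplified amount in the differences between cells was not tested.

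**Figure D3:**
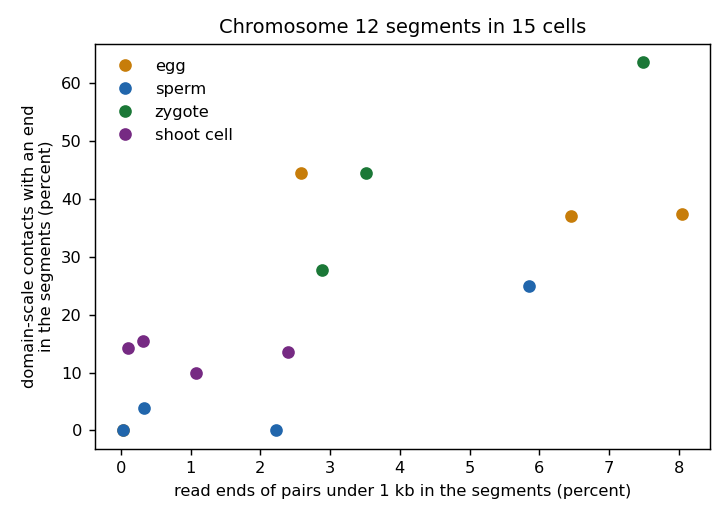
Percent of domain-scale contacts with an end in the chromosome 12 segments (vertical axis) against percent of the read ends of pairs under 1 kb that lay in the segments (horizontal axis), with 1 point per cell coloured by group. Zygote 3 is highest at 63.6% with 7.49% of read ends, and sperm 2 is at 0% with 2.22%.

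The segments changed the picture of distance too. Contacts in them had a median separation of 36.6 kb, with 43 of 67 at 20 to 50 kb, none at 50 to 100 kb and 18 at 100 to 200 kb. The 241 contacts outside had a median of 156 kb, with 64, 38 and 25 in the same classes. Relative to possible pairs of positions, contacts outside the segments were 17.0 times as frequent at 20 to 50 kb, 6.06 times at 50 to 100 kb and 2.00 times at 100 to 200 kb. At 1000 to 2000 kb the ratio was 0.384.

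**Figure D4:**
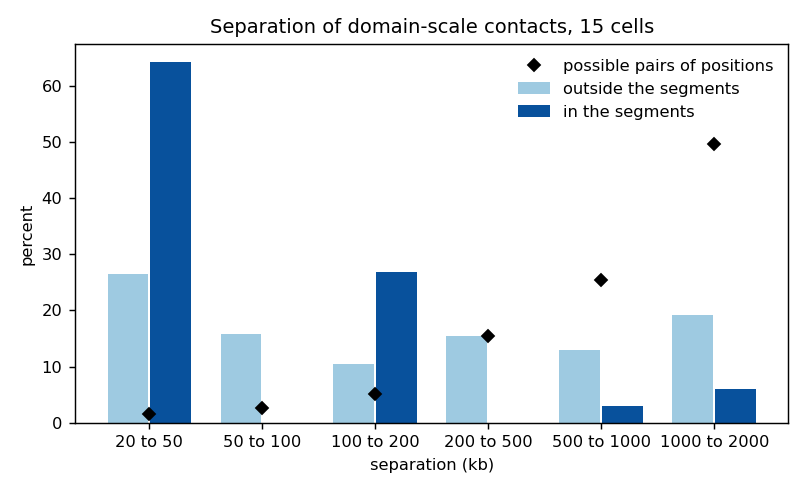
Percent of domain-scale contacts of all 15 cells in 6 classes of separation in kb, for the 241 outside the chromosome 12 segments (light bars) and the 67 with an end in them (dark bars), with diamonds for the percent of possible pairs of positions in each class. Contacts outside the segments lie above the diamonds up to 200 kb and below them from 500 kb.

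Along the chromosomes, ends of domain-scale contacts were sparse in the outermost parts. The outer 2 Mb of all chromosomes make up 12.6% of the genome and held 47 of 616 ends (7.63%), and 14 of 15 cells lay below the share of length. The group means were 7.87% in eggs (SD 5.44, n = 4 cells), 8.18% in sperm (SD 4.58, n = 4), 1.85% in zygotes (SD 1.60, n = 3) and 10.6% among shoot cells (SD 3.28, n = 4). Zygotes had 2 such ends among 94. Outside the chromosome 12 segments the share over all cells was 9.75%, and by group it was 13.6% for eggs, 6.98% for sperm, 3.70% for zygotes and 12.3% for shoot cells. Eggs and shoot cells then lay near the share of length. Short cis ends of the same cells had 10.5% in eggs, 12.1% in sperm, 8.74% in zygotes and 12.0% among shoot cells on average. In the same order, long cis ends had 6.17%, 11.2%, 5.28% and 10.2%, and trans ends 6.50%, 13.2%, 7.49% and 11.9%. In eggs and zygotes low shares in the outer parts were thus not particular to domain scale. In sperm the other classes lay near the share of length, while the domain-scale mean was lower. In shoot cells the domain-scale mean of 10.6% was close to that of long cis ends, 10.2%.

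Around the centromeres there was an excess that depended on the window, on the segments and on 1 cell. Regions within 2 Mb of the textbook centromere positions make up 12.9% of the genome and held 130 of 616 ends (21.1%), with 11 of 15 cells above the share of length. Within 1 Mb the direction turned over all cells, with 4.06% of ends against 6.44% of the length, and 5.19% of ends outside the segments. Sperm did not turn, with a mean of 7.44% (SD 5.45, n = 4 cells) and 8.14% of ends outside the segments. Within 2 Mb, outside the segments, there were 80 of 482 ends (16.6%). By group, outside the segments, it was 10.2% for eggs, 25.6% for sperm, 14.8% for zygotes and 11.6% for shoot cells. With the segments kept, the group means were 16.8% (SD 13.0, n = 4 cells), 24.8% (SD 19.2, n = 4), 26.3% (SD 16.6, n = 3) and 15.5% (SD 11.5, n = 4) in the same order. Sperm 3 had the highest share, with 22 of 42 ends (52.4%), and 12 of them came from its 6 contacts on chromosome 1. The short cis ends of sperm 3 had 32.4% and its trans ends 6.68% near centromeres. The sperm mean without sperm 3 was 15.6%.

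Domain-scale contacts seldom reached over a centromere. Ends lay on both sides of the textbook position in 3 of the 308 (0.974%). Whether these positions hold on the build used for the files was not tested.

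Ends on the shorter arms were fewest in zygotes. Outside the segments the pooled share of the shoot cells was also low, but it leaned on a single cell. The shorter arms make up 38.8% of the genome and held 201 of 616 ends (32.6%), and 41.7% of ends outside the segments. The group means were 35.5% in eggs (SD 12.0, n = 4 cells), 46.9% in sperm (SD 25.1, n = 4), 14.1% in zygotes (SD 11.9, n = 3) and 29.3% among shoot cells (SD 10.4, n = 4). Sperm cells ran from 12.5% to 66.7%, which spans most of the other groups. Zygotes ran from 5.56% to 27.8%, which overlapped the shoot cells at 17.6% to 42.9%. Outside the segments, all of which lie on the longer arm of chromosome 12, the share was 51.7% for eggs, 50.6% for sperm, 25.9% for zygotes and 28.3% for shoot cells. These shares pool the ends of a group, and shoot cell 2 gave 32 of the 69 shoot contacts outside the segments. With the segments kept, shoot cell 2 had the lowest share of the shoot cells, 13 of 74 ends (17.6%). Shoot cells 1, 3 and 4 had 26.9%, 42.9% and 30%. Trans ends of the zygotes had 27.5% and their short cis ends 38.1% on shorter arms.

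Domain-scale contacts of a cell often lay beside another of the same cell. A neighbour was defined as another contact of the same cell with both ends within 100 kb. The share of contacts with a neighbour was 40.7%, 47.2%, 16.7% and 37.5% in the eggs and 50%, 33.3% and 63.6% in the zygotes. It was 36.5%, 0%, 19.0% and 0% in the sperm and 38.5%, 18.9%, 0% and 0% in the shoot cells. Zygotes had the highest mean, 49.0% (SD 15.2, n = 3 cells), followed by eggs with 35.5% (SD 13.2, n = 4), shoot cells with 14.3% (SD 18.4, n = 4) and sperm with 13.9% (SD 17.6, n = 4). The cells with none, sperm 2, sperm 4, shoot cell 3 and shoot cell 4, had only 7 to 10 contacts each.

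Clustering was concentrated in the segments. Over all cells 98 of 308 contacts (31.8%) had a neighbour, 59 of the 67 in the segments (88.1%) and 39 of the 241 outside (16.2%). In the first segment all contacts had both ends inside a stretch shorter than the neighbour distance. Any contacts of the same cell there were therefore neighbours by definition. The segments were also drawn from bins with recurring ends, joined where they lay close together. The contrast between the segments and the rest thus follows in part from these definitions. Outside the segments the group means were 9.61% in eggs, 13.3% in sperm, 11.8% in zygotes and 8.38% among shoot cells. These means turn on single cells: the sperm mean was 6.35% without sperm 1, the shoot mean 2.08% without shoot cell 1 and the zygote mean 7.69% without zygote 1. No order of the groups outside the segments can be read from them. Short cis contacts of the same cells had a neighbour in 34.5%, 26.6%, 26.1% and 18.3% on average in eggs, sperm, zygotes and shoot cells.

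Contacts linked through neighbours formed 35 clusters, 18 of them on chromosome 12. The largest was in egg 2, with 10 contacts and 24 read pairs over chr12:20470001-20670000. Egg 1 had 9 contacts over chr12:20500001-20670000, and zygote 1 had 5 contacts over chr12:20460001-20660000. The largest cluster of a shoot cell, in shoot cell 1, had 4 contacts over chr12:13350001-13420000. Sperm differed in place: the largest sperm cluster was 3 contacts of 210 to 213 kb over chr2:12850001-13080000 in sperm 1. Away from the segments there were 19 clusters, and none had more than 3 contacts. Of these 19, 8 were in sperm 1 with 17 contacts, 2 in sperm 3, and none in sperm 2 or sperm 4. Shoot cell 1 had 3.

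In windows of 1 Mb, chromosome 12 had the largest mean share of a cell's contacts in every group, though in sperm this rested on few contacts. The leading 2 windows were 20 to 21 Mb and 13 to 14 Mb of chromosome 12 in eggs (19.8%, SD 16.4, and 10.4%, SD 10.5, n = 4 cells) and zygotes (25.1%, SD 12.8, and 16.5%, SD 9.33, n = 3). In shoot cells 13 to 14 Mb came first with 8.37% (SD 6.38, n = 4) and 20 to 21 Mb second with 4.92% (SD 6.74). In sperm 20 to 21 Mb had 5.90% (SD 6.84, n = 4), and 25 to 26 Mb of chromosome 4 came next with 4.09% (SD 5.89), level with 13 to 14 Mb of chromosome 12. A contact was counted in the window that held its midpoint. The sperm lead came from 1 contact each in sperm 2 and sperm 4, which had 9 and 8 contacts in all. The contact of sperm 2 joined chr12:19280001-19290000 to chr12:21050001-21060000, so neither of its ends lay in the leading window. By number, 15 to 16 Mb of chromosome 1 had 4 contacts in sperm, against 2 in 20 to 21 Mb of chromosome 12. The variance of the count per window over its mean, which is 1 for an even random scatter, was 2.88 in eggs (SD 1.69), 2.10 in zygotes (SD 0.629), 1.26 in shoot cells (SD 0.352) and 1.19 in sperm (SD 0.253). Of the 379 windows, 161 (42.5%) held a domain-scale contact in some cell. Outside the segments no window held one in more than 4 cells, and that window was 2 to 3 Mb of chromosome 11, in egg 4, zygote 2, shoot cell 2 and shoot cell 4.

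Few domain-scale contacts recurred between cells. Of the 279 bin pairs, 18 (6.45%) were found in at least 2 cells, 13 of them in exactly 2. The share was 5.44% for short cis, 7.4% for long cis and 5.34% for trans bin pairs, so recurrence at domain scale was near that of the other classes. Where the recurring pairs lay was uneven: 16 were on chromosome 12 and 15 had both ends in the segments. In terms of contacts, 41 of the 67 in the segments and 6 of the 241 outside (2.49%) had a bin pair found in another cell. The segments were drawn from bins with ends in at least 3 cells, so this contrast follows in part from their choice.

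The bin pair found in the most cells joined chr12:13370001-13380000 to chr12:13400001-13410000 in the first segment. It occurred in 7 cells of all 4 groups, with 1 read pair in egg 2, 7 in egg 4, 2 in sperm 1, 9 in zygote 2, 1 in zygote 3, 1 in shoot cell 1 and 2 in shoot cell 2. The separation was 27.1 to 30.9 kb. Next came chr12:13380001-13390000 with chr12:13410001-13420000 in 5 cells, with 1 read pair in egg 2, 46 in egg 4, 1 in zygote 3, 1 in shoot cell 1 and 8 in shoot cell 4. Sperm had none of the latter.

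A further 3 bin pairs were found in 3 cells each, all with 1 read pair per cell. One joined chr12:13340001-13350000 to chr12:13380001-13390000 in egg 4, sperm 1 and zygote 2. Another joined chr12:13350001-13360000 to chr12:13370001-13380000 in zygote 1, zygote 3 and shoot cell 1. The last joined the second segment to the third, from chr12:20510001-20520000 to chr12:21600001-21610000, in egg 2, zygote 1 and zygote 2 at 1084 to 1090 kb.

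Outside the segments 3 bin pairs recurred, each in 2 cells of different groups. One on chromosome 12 joined chr12:4140001-4150000 to chr12:5570001-5580000 over 1424 kb, with 116 read pairs in egg 4 and 3 in sperm 1, and both of its fragment pairs were the same in the 2 cells. The others were chr11:19780001-19790000 with chr11:19810001-19820000 in egg 3 and sperm 2, and chr11:23330001-23340000 with chr11:23410001-23420000 in sperm 3 and zygote 1. At this bin size no bin pair outside the segments was shared by cells of one group, where 0 of 241 contacts allows a share of up to 1.24%.

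**Figure D5:**
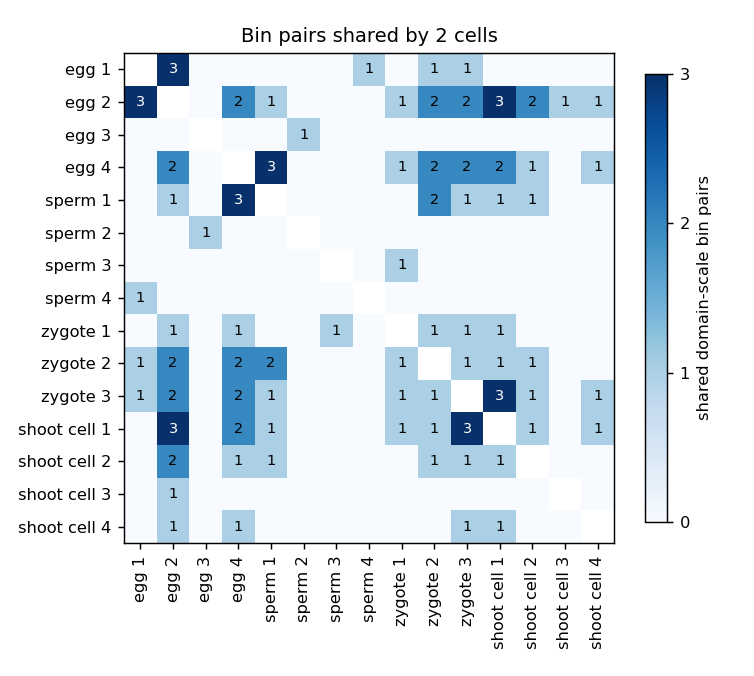
Number of domain-scale bin pairs found in both cells of each pair among the 15 cells, with cells in the same order on both axes and darker squares for more shared bin pairs. The highest number is 3, and egg 2, egg 4, zygote 2, zygote 3 and shoot cell 1 share bin pairs with cells of several groups.

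Sharing was compared between cells of one group and cells of different groups. Per 1000 possible matches of a contact in one cell with a contact in the other, 1.23 were shared within groups (10 in 21 pairs of cells) and 1.23 between groups (43 in 84 pairs). By group the rates rest on few matches, so no order of the groups can be read from them. The rate was 4.17 between zygotes (3 matches). Zygotes had 2.81 with eggs (12 matches), 2.13 with shoot cells (8) and 0.946 with sperm (4). It was 1.71 between eggs (5), against 1.51 for eggs with shoot cells (11) and 0.733 with sperm (6). It was 0.951 between shoot cells (2) and 0.278 for sperm with shoot cells (2). No bin pair was shared between sperm, but the 0 depends on the bin edges. The mean share of a sperm's contacts found in another sperm was 3.65% with 20 kb bins and 3.61% when adjacent bins were counted as a match. Outside the segments 3 bin pairs were shared in all 105 pairs of cells, or 0.115 per 1000. The rates by group thus rest on the segments, which were themselves chosen for ends that recurred between cells.

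The zygotes can be set beside both gametes. Of the 44 distinct bin pairs of the zygotes, 7 were also found in eggs, which is 15.9% of those in zygotes and 8.14% of those in eggs. The sperm held 3 of the 44 (6.82% of those in zygotes and 3.33% of those in sperm), and the shoot cells also 3 (6.82% and 3.85%). The share of a cell's contacts found in some cell of another group was 26.9% in zygotes (SD 8.16, n = 3 cells), 16.8% among eggs (SD 10.2, n = 4), 11.3% among shoot cells (SD 4.55, n = 4) and 8.54% in sperm (SD 3.84, n = 4). Without the segments it was 3.33%, 4.58%, 0% and 4.47% in that order. The mean for shoot cells was 6.06% when egg 2 was left out.

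Shared reads between libraries were looked for beside these values. Over the 105 pairs of cells, 13 read pairs had identical positions in both cells, 1 of them at domain scale. Among the 44 distinct fragment pairs of the recurring bin pairs, 9 were the same fragment pair in at least 2 cells. The part of reads carried over between libraries in the recurrence was not tested.

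Many domain-scale contacts rested on little sequence. Of the 308, 165 (53.6%) had 1 read pair, and 96 were supported by at least 2 distinct fragment pairs. The share with 1 read pair was 53.6% for eggs, 44.4% for sperm, 70.0% for zygotes and 54.3% for shoot cells on average. The contact with the most read pairs, 123, was in egg 3 and joined chr3:24870001-24880000 to chr3:25030001-25040000. The contact with the most fragment pairs, 19, was in sperm 1 and joined chr1:15280001-15290000 to chr1:15400001-15410000 over 122 kb with 85 read pairs. Since amplification copies molecules, read pairs of one contact are not independent.

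The strands of the ends were mixed over all cells together, and uneven within groups. Ligation of 2 distant fragments can join them in 4 orientations, while an uncut piece of DNA gives reads that face each other. Of the 520 domain-scale fragment pairs, 28.5% had both ends on the plus strand, 25.4% were plus then minus, 24.2% minus then plus and 21.9% minus and minus. Long cis pairs had 26.4%, 25.1%, 24.4% and 24.2% in the same order. Pairs under 1 kb had 74.6% plus then minus, and short cis pairs had 46.4% minus then plus. With the fragment pairs of a group pooled, the groups departed from these shares, but single cells went against their group. Both ends were on the plus strand in 36.4% of the fragment pairs of eggs, 33.1% of those of shoot cells, 29.8% of those of zygotes and 19.4% of those of sperm. Both were on the minus strand in 19.3%, 14.2%, 14.0% and 31.1% in that order. Single cells differed further, with 48.5% plus and 3.03% minus in egg 4 against 14.4% and 37.6% in sperm 1. Sperm 1 gave 125 of the 196 sperm fragment pairs, and sperm 4 had 8.33% plus and 50% minus of 12. Sperm 2, with 35.7% plus and 28.6% minus, and sperm 3, with 31.1% and 8.89%, had more plus pairs than minus. Egg 3 had 21.4% plus and 32.1% minus, against the egg values. The group values thus turn on single cells. In the segments the shares were 29.9%, 32.5%, 20.8% and 16.9% of 77 fragment pairs.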

How the data were processed

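Single-cell Hi-C contacts of 15 rice cells were used. The deposited contact files hold 1 line per read pair with the chromosome, position, restriction fragment and strand of both ends. Such positions and other identifiers carry no normalised value, per the labels and the files themselves. The sources used here give no name for the aligner, the contact caller or the genome build. No molecular identifiers were used.

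Read pairs were reduced to distinct fragment pairs per cell, placed at fragment midpoints, divided by separation and merged per pair of 10 kb bins. Centromere positions are textbook megabase positions of the rice reference. Named regions were the bin pairs in at least 3 cells, the 2 leading 1 Mb windows of each group and the largest cluster of each group. The 3 bin pairs recurring outside the segments, egg 1's cluster and other places were named after their values were seen. Intervals are exact (Clopper-Pearson) at 95%, and for a count of 0 the limit is 3 counts of the total. No test was made between groups. The members and lists were chosen with earlier results of these data known. Alternatives covered merging, bin size, read support, the lower limit of separation, isolated contacts, fragments with more than 4 partners, recurrent bins (ends in at least 5 cells), windows, adjacent bins and each cell left out. Leaving out the chromosome 12 segments was chosen after seeing the data. The code was tested on simulated contacts and used scipy 1.17.1, pandas 2.3.3, numpy 2.4.6 and matplotlib 3.10.9 under Python 3.11.15.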

Additional observations from a re-analysis of the deposited data

Results flagged for a closer look

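In 4 of 44 sets of cells tested, 1 cell lay far from the others of its group for the spread among them. The 3 zygotes were too few for the rule and were not tested. Chance would mark about 1 in 20 independent sets, but these sets are linked measures of the same cells. The number flagged can therefore not be set against chance. Separation was part of the rule and the segments were drawn from these contacts, so the flags on them are descriptions. Egg 3 had a median separation of 985 kb, against 119 to 176 kb in the other eggs. Egg 3 also had 0% of its domain-scale contacts in the chromosome 12 segments, against 37.0% to 44.4% in the other eggs. Sperm 4 had 25% there, against 0% to 3.85% in the other sperm. In egg 1, 63.9% of domain-scale fragment pairs had both ends on the same strand, the highest of the 4 eggs.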

How the results depend on the processing

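Of 496 values recomputed under alternatives that kept every cell or left out shoot cells 3 and 4, 372 moved by less than the SD between cells (counts: by less than 1.5 times) and 124 by more. Of 345 with 1 cell left out, 7 moved by more. Leaving out a cell cannot shift a plain mean share or separation of its group by more than that SD. The small number is therefore no measure of stability. The cause of these moves was not tested. Contacts per cell numbered 35 in eggs, 49 in sperm and 31.8 in shoot cells without merging. With at least 2 read pairs they numbered 9.25, 14, 4.33 and 9.25 for eggs, sperm, zygotes and shoot cells. From 50 kb they numbered 9.33 in zygotes and 9.75 among shoot cells, and without recurrent bins 10.3 in zygotes. Without the chromosome 12 segments they numbered 14.8 in eggs and 9 in zygotes, while shoot cells 1 and 2 alone gave 31.5. Leaving out a cell gave 12.7 to 27.3 in sperm. Median separation from 50 kb was 289 kb in sperm, 187 kb in zygotes and 408 kb among shoot cells. It was 177 kb in zygotes without the segments and 273 kb in shoot cells with at least 2 read pairs.

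Ends near centromeres without isolated contacts made up 33.6% in eggs, 63.2% in sperm and 41.4% in shoot cells. A 1 Mb window gave 2.17% in eggs, 7.44% in sperm, 2.78% in zygotes and 1.98% among shoot cells. All cells together had 4.06% in that window, against 6.44% of the genome's length, so the excess over all cells within 2 Mb was not found within 1 Mb. From 50 kb zygotes had 5.90%. Ends on shorter arms without isolated contacts made up 73.7% in sperm, 0% in zygotes and 10% among shoot cells. They made up 50.6% in eggs without the segments and 41.4% in shoot cells with at least 2 read pairs. In shoot cells, contacts with an end in the segments made up 9.02% without merging, 9.17% with at least 2 read pairs and 0% from 50 kb, and same-strand fragment pairs 59.9% with at least 2 read pairs.

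Contacts with a neighbour made up 74.8%, 67.9%, 65.5% and 66.3% for eggs, sperm, zygotes and shoot cells without merging, which counts fragment pairs of one bin pair as neighbours. They made up 20.8% in eggs from 50 kb and 26.7% in zygotes with at least 2 read pairs. Without recurrent bins they made up 14.0% in eggs and 10.3% in zygotes, and without the segments 9.61% and 11.8%. Contacts found in another group from 50 kb made up 4.67%, 2.16%, 15.1% and 0% in the 4 groups. Without recurrent bins they made up 6.53% in eggs, 5.16% in zygotes and 0% among shoot cells. Without the segments they made up 4.58%, 4.47%, 3.33% and 0%. With adjacent bins matched they made up 28.4% in eggs and 45.3% in zygotes, and with at least 2 read pairs 17.8% in zygotes and 5.83% among shoot cells. Leaving out a cell gave 6.06% to 13.2% in shoot cells.

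Bin pairs in at least 2 cells numbered 5 with at least 2 read pairs, 6 from 50 kb, 10 without fragments of more than 4 partners, 6 without recurrent bins, 3 without the segments and 41 with adjacent bins matched. Bins with ends in at least 3 cells numbered 5, 4, 11, 2 and 0 under the first 5 of these. No paired analysis was possible because the values come from no test and the replicate numbers only name cells. With 7 to 52 contacts in a cell, depth limits every share of a single cell.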
